A study of Homo sapiens with 32 samples.

Results

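PAX2, PAX8, LHX1, WT1, EMX2, GATA3, SIX2 and EYA1, 8 regulators of early kidney development, were examined in HEK293T, a human line derived from embryonic kidney. ATAC-seq was used, an assay of open chromatin in which the transposase Tn5 cuts exposed DNA and leaves sequencing adapters behind. Members were the windows of the count table whose centre lay inside the annotated gene body (GENCODE release 44, hg38) or within 5000 bp of either end. This gave 98 windows of the 212358 counted, and 86 of them passed the low-count filter among 185040 tested windows. Every window is 401 bp wide, so that levels of different windows are per equal length.

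All libraries came from HEK_CloneZD29, a single clone in which the zinc finger factor ZNF143 carries an inducible degron tag. Control cells received DMSO and treated cells 50 nM dTAGV-1, a compound that directs tagged proteins to the proteasome, for 30 min. Both groups carry the tag. Counts were used from replicates 9 to 16, with 8 control and 8 dTAGV-1 libraries. Replicates 1 to 8 entered only through a list of 259926 peak summits, and another label field of those controls gives no treatment where the title says DMSO. The labels do not say that replicates were separate cultures, so p-values measure the spread between these libraries, which may be technical.

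Total counts ranged from 2275856 to 11418578 in the control libraries and from 3373219 to 13671039 in the dTAGV-1 libraries. Control replicate 12 had the fewest counts and the flattest profile, with 31.2% of its counts in the most covered decile of windows against up to 47.3% elsewhere. The 98 windows together took 0.0463% ± 0.0018 (SD, n = 8) of the counts in the control group and 0.0463% ± 0.0017 (SD, n = 8) in the dTAGV-1 group.

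PAX2 and PAX8 are paired-box factors that specify the renal lineage together and can replace each other in part. LHX1, a LIM homeodomain factor, acts with them in the nephric duct and early nephron, GATA3 in the duct and collecting system, and EMX2 in the ureteric epithelium. SIX2 maintains nephron progenitors, EYA1 is a phosphatase and coactivator of SIX2 and its relatives, and WT1 is needed for progenitor survival and later for podocytes. ZNF143 binds a conserved core motif, mostly at promoters, and recruits the transcription machinery.

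Promoter sequences from RefSeq (GRCh38.p14) matched 6 of the 8 genes by symbol. The 3 promoters shown carry the contrast on which the results turn, an open start in SIX2 and PAX2 and no counted window at the start of PAX8. Each is the 250 bases before the annotated start, written 5′ to 3′ on the gene's strand, with every CG dinucleotide in capitals. The SIX2 stretch is chr2:45009453-45009702 on the minus strand, the PAX2 stretch chr10:100745332-100745581 on the plus strand and the PAX8 stretch chr2:113278922-113279171 on the minus strand.
SIX2 promoter: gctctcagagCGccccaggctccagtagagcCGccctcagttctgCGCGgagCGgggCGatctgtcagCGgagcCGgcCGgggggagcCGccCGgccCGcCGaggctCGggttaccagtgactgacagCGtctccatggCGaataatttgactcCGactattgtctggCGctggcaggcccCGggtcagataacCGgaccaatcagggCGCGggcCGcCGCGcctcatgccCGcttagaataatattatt
PAX2 promoter: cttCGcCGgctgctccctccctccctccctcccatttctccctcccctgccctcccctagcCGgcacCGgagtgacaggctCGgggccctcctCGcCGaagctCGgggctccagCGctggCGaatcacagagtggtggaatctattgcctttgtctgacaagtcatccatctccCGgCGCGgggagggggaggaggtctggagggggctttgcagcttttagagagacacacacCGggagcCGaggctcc
PAX8 promoter: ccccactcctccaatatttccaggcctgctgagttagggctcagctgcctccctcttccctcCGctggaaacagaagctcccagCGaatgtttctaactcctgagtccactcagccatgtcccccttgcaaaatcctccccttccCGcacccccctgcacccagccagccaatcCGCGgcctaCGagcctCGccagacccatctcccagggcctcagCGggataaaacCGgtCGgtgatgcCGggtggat
The SIX2 stretch held 26 CG dinucleotides, the PAX2 stretch 15 and the PAX8 stretch 11. Over the 300-base RefSeq promoters, the observed CG count divided by the count given by base composition was 0.95 for SIX2, 0.58 for PAX2 and 0.48 for PAX8. These lay at the percentiles 86.4, 50.0 and 45.2 of 35116 RefSeq promoters, so that PAX2 and PAX8 were close to each other in this measure.

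The next sequences are the central 200 bases (hg38, plus strand) of the most accessible window outside promoters in GATA3, EMX2 and PAX8, and of the most accessible PAX2 window over 10 kb from its canonical start. They are shown because they differ in composition as well as in level. The positions are chr10:8050541-8050740 for GATA3, chr10:117541358-117541557 for EMX2, chr2:113273131-113273330 for PAX8 and chr10:100817585-100817784 for PAX2.
GATA3 window: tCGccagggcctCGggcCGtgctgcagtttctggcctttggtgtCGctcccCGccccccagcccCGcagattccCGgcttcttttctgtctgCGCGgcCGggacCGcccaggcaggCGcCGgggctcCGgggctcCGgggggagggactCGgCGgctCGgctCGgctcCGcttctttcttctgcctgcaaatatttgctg
EMX2 window: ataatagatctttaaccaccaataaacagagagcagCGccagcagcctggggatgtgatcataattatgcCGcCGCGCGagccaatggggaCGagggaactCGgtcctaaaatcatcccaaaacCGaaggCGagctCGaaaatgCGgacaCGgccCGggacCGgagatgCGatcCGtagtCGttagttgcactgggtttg
PAX8 window: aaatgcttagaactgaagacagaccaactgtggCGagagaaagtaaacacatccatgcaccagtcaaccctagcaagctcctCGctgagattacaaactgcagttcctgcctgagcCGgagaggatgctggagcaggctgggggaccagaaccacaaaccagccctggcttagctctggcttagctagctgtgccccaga
PAX2 window: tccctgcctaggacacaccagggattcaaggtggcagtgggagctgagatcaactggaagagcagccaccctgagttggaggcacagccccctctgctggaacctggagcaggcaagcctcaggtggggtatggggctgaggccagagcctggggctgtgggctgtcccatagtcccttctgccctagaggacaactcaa
The GATA3 and EMX2 stretches held 20 and 17 CG dinucleotides, while the PAX8 stretch held 3 and the PAX2 stretch 0.

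Promoters of 6 of the 8 genes were accessible in control cells. A window was taken as a promoter window when its centre lay within 500 bp of any start of the gene annotated in GENCODE. Starts found only in RefSeq were not used for this. By the mean log2 CPM (counts scaled to library size, on a log2 scale) of the 8 control libraries, a window was graded strong in the top decile of all tested windows, at or above 3.55, intermediate from the median of 1.42 upwards, and weak below it. The best promoter window was strong in SIX2, GATA3, EMX2 and EYA1 and intermediate in PAX2 and WT1. PAX8 had no promoter window, and the 1 promoter window of LHX1 held no counts.

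Of the 86 tested windows, 9 were strong, 40 intermediate and 37 weak. The 21 tested promoter windows had a median of 2.78 log2 CPM and the other 65 a median of 1.29. Promoter windows of all protein-coding genes, 31702 in number, had a median of 3.14, and 38.7% of them were strong against 5 of 21 here. Promoter and other windows also differed in composition, with a median GC content of 64.1% and 50.1% and a median observed over expected CG ratio of 0.77 and 0.23. Of all 98 centres, 66 were intronic, 14 lay in the upstream and 6 in the downstream flank, 7 in untranslated exons, 4 in coding exons and 1 in a noncoding exon. A summit of replicates 1 to 8 fell in all 9 strong windows, in 27 of 40 intermediate and in 25 of 37 weak ones. That made 70.9% of the tested windows, against 81.2% of tested windows in the whole table.

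**Figure D1:**
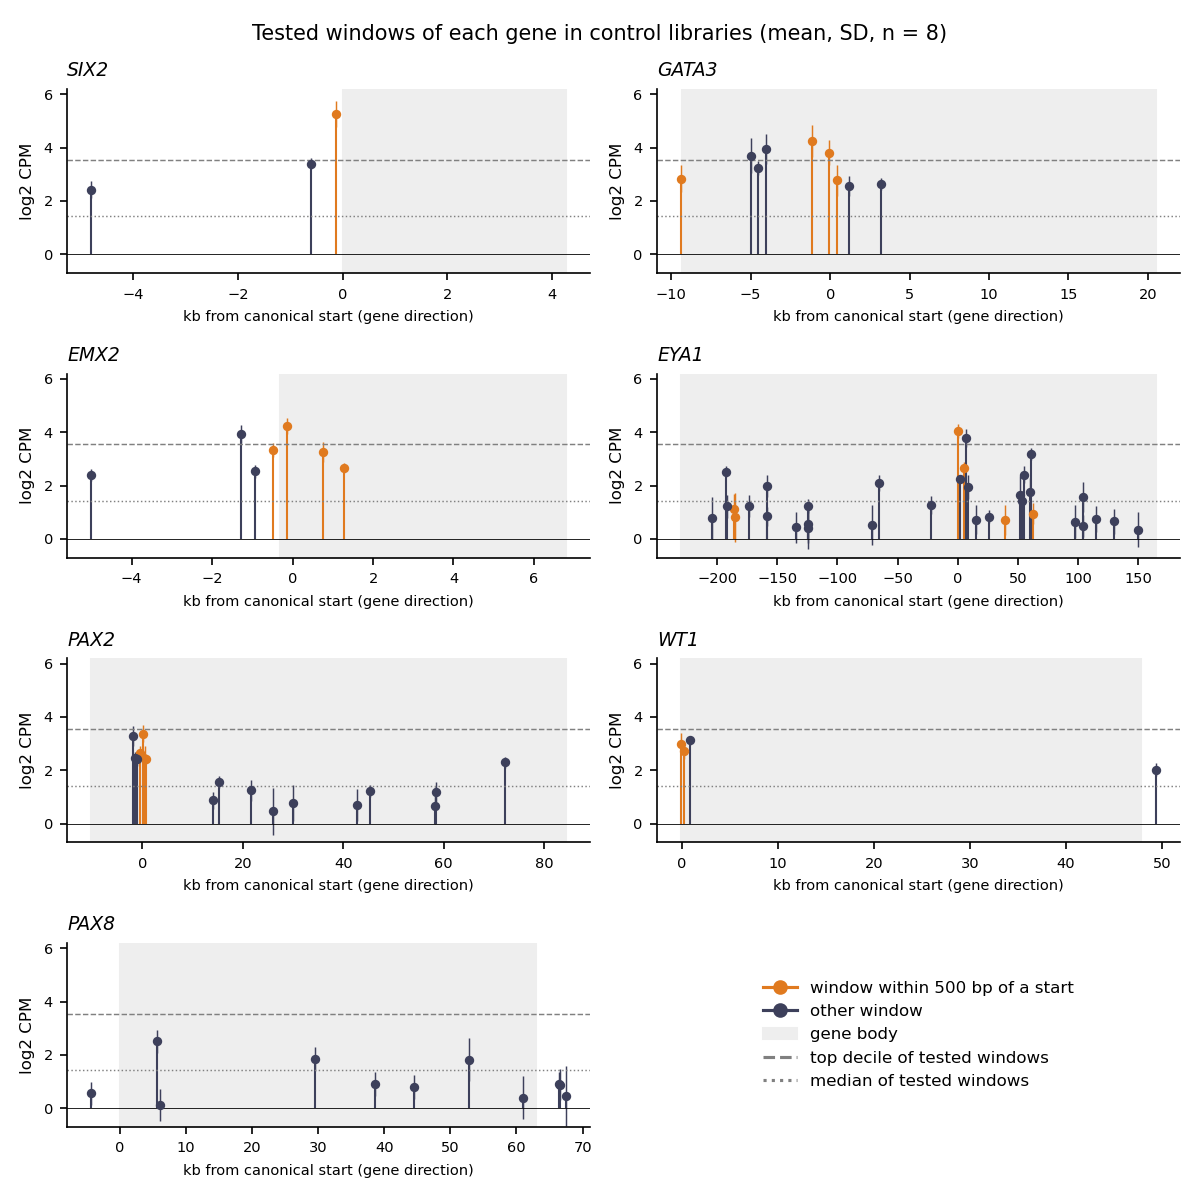
Mean control accessibility (log2 CPM, vertical axis, with SD bars over 8 libraries) of each tested window against its distance in kb from the canonical start of the gene, counted in the direction of transcription. Windows within 500 bp of any start are orange and others dark, grey shading is the gene body, and the dashed and dotted lines mark the top decile (3.55) and the median (1.42) of tested windows. SIX2, EMX2 and GATA3 windows cluster at the start, EYA1 windows spread over the gene, and PAX8 has none at its start.

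PAX2, which marks the nephric lineage from its earliest stage, had 19 windows of which 17 were tested. They fell into a cluster at the canonical start (the start of the transcript that GENCODE tags as canonical) and a scattered intronic group. The promoter window at chr10:100745429-100745829, centred 47 bp downstream of that start in an untranslated exon, ranged over the control libraries from 2.72 to 3.80 log2 CPM with a median of 3.38. In the dTAGV-1 libraries it ranged from 3.30 to 3.68 with a median of 3.55. The lowest value was that of control replicate 12, and the groups overlapped over the whole dTAGV-1 range.

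Upstream of it, chr10:100743594-100743994, 1788 bp before the canonical start and intronic to a longer PAX2 transcript, was nearly as accessible at 3.28 ± 0.38 (SD, n = 8). The RefSeq start of that longer transcript had its nearest window 5306 bp away. Among the windows deeper in the gene, the most accessible was the CG-free intronic one shown above, chr10:100817485-100817885, at 2.29 ± 0.21 and 72103 bp from the start. PAX2 therefore had 9 intermediate and 8 weak windows and no strong one.

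PAX8, the paralogue that works beside PAX2, had no counted window within 500 bp of any of its 10 annotated starts. The window nearest to the canonical start lay 4324 bp upstream and was weak, at 0.56 ± 0.43 log2 CPM (SD, n = 8). The summit list of replicates 1 to 8 likewise placed 0 summits within 500 bp of a PAX8 start, although it placed 8 in the region. All 11 PAX8 windows were tested, 3 of them intermediate and 8 weak.

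The most accessible PAX8 window was intronic, chr2:113273031-113273431, 5690 bp into the gene. Its control values ran from 1.69 to 2.92 log2 CPM with a median of 2.68, and its dTAGV-1 values from 1.58 to 3.16 with a median of 2.64. The libraries numbered 12 were lowest in both groups. A summit of replicates 1 to 8 fell in this window, with an authors' score of 190.1 on a −log10 scale. Other intermediate windows stood at 29583 bp (1.84 ± 0.45) and at 52889 bp (1.83 ± 0.81). Much of the gene body is shared with the antisense gene PAX8-AS1, and ATAC-seq does not tell the strands apart.

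LHX1 had 6 windows with almost no counts, and none could be tested. The window at its start, chr17:36936513-36936913, 72 bp from an LHX1 start and 43 bp from the start of the divergent transcript LHX1-DT, had 0 counts in all 16 libraries. The authors' peak call nevertheless gave this window a −log10 q of 41.2, and a summit of replicates 1 to 8 lay in it. Only 1 of the 6 windows had any count, 5 over all libraries. The strongest call, at −log10 q 455.1, was a downstream window 2 bp from the start of AATF, a neighbouring gene, and it also had 0 counts.

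The empty windows around LHX1 formed a run from 35795464 to 38825578 on chromosome 17, 3.03 Mb in length. The run was extended from LHX1 while over 50% of the next 20 windows had fewer than 20 counts, and then over every adjoining window under 20. Within it, 144 of 158 windows had fewer than 20 counts over the 16 libraries, 135 had 0, and 1 was tested. The 50 windows to its left had a median of 618.5 counts and the 50 to its right a median of 318, and 0 on either side had fewer than 20. The authors' −log10 q inside the run had a median of 47.2, against 23.4 in the whole table, and 145 summits of replicates 1 to 8 fell inside. In the table, windows under 20 counts made up 2.09% of all windows. A count of 0 at LHX1 therefore cannot be read as closed chromatin here, and what emptied the run was not tested. The run contains 53 protein-coding genes.

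**Figure D2:**
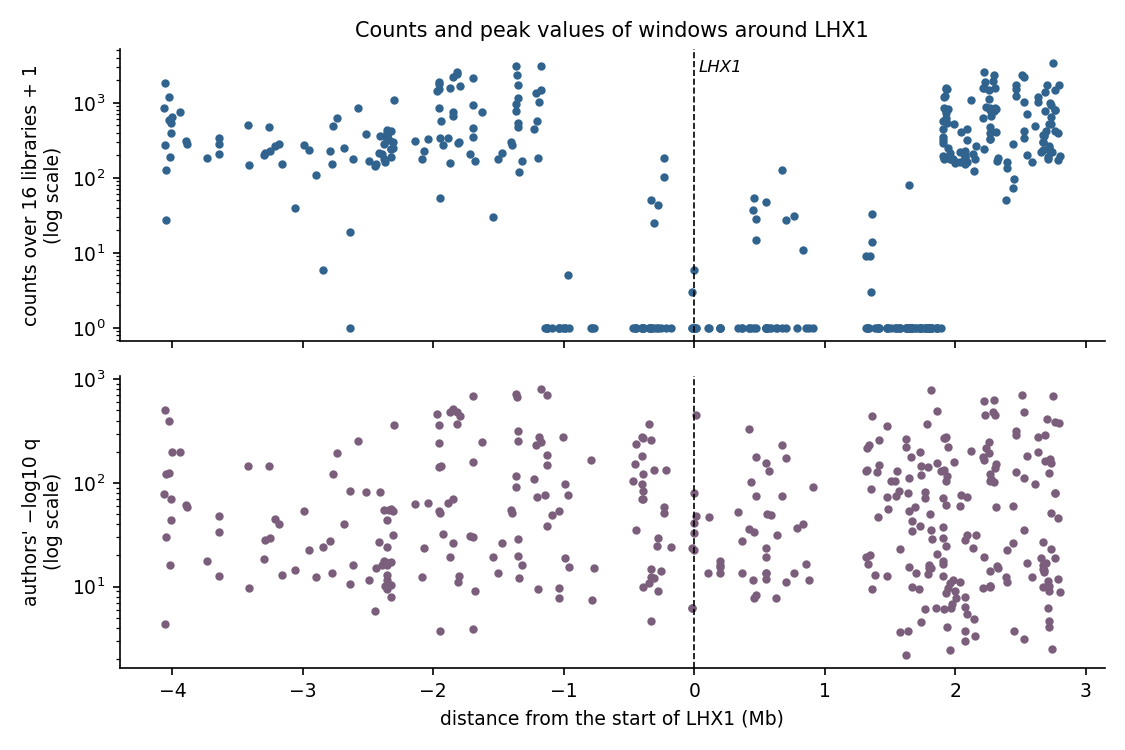
Summed counts over the 16 libraries plus 1 (upper panel, log scale) and the authors' −log10 q (lower panel, log scale) of windows against their distance in Mb from the start of LHX1, which the dashed line marks. Within the 3.03 Mb run most windows have 0 counts, while the −log10 q there runs up to 790.6.

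WT1, a zinc finger factor of progenitors and podocytes, had 4 windows, all intermediate. The promoter window chr11:32435395-32435795, 56 bp upstream of the canonical start and 16 bp from the start of WT1-AS, ranged from 2.24 to 3.46 log2 CPM in control cells with a median of 3.16. In treated cells it ranged from 2.71 to 3.30 with a median of 3.11, inside the control range. The intronic window chr11:32434497-32434897, 842 bp downstream, stood at 3.12 ± 0.17 (SD, n = 8), a mean slightly above that of the promoter window. The window chr11:32435098-32435498, in a coding exon 241 bp downstream and overlapping the promoter window, stood at 2.72 ± 0.30. Beyond the intronic window the 47790 bp gene body held no further counted window, and the last lay 49369 bp from the start in the downstream flank at 2.01 ± 0.25. The summit list of replicates 1 to 8 placed 7 summits in the WT1 region, and each of the 4 windows held a summit. With 6.92 windows per 100 kb, WT1 was at the percentile 29.1 of protein-coding genes.

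EMX2, a homeodomain factor of the ureteric epithelium, had 7 windows, all tested, between 5007 bp upstream and 1287 bp downstream of its canonical start. The promoter window chr10:117542403-117542803, 14 bp from the start of the antisense gene EMX2OS, ranged from 3.61 to 4.61 log2 CPM in the control libraries with a median of 4.27. The dTAGV-1 libraries ranged from 3.88 to 4.37 with a median of 4.19. A further strong window, chr10:117541258-117541658, lay 1288 bp upstream at 3.94 ± 0.35 (SD, n = 8), and its central sequence is the EMX2 one above. EMX2 had 40.9 windows per 100 kb, the percentile 97.5, where the median protein-coding gene had 11.5.

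GATA3, a zinc finger factor of the nephric duct, had 9 windows, all tested, spread from 9390 bp upstream to 3189 bp downstream of its canonical start. It held 4 of the 9 strong windows, and no counted window lay deeper in the 29821 bp gene body. The summit list of replicates 1 to 8 placed 10 summits in the GATA3 region, and 6 of its windows held a summit. The most accessible window, chr10:8053315-8053715, was 89 bp from a GATA3 start and 31 bp from the start of the antisense gene GATA3-AS1. Its control values ran from 2.80 to 4.54 log2 CPM with a median of 4.46, and its dTAGV-1 values from 3.80 to 4.71 with a median of 4.53. Control replicate 12, at 2.80, lay apart from the next control library at 4.19. The window at the canonical start stood at 3.81 ± 0.47 (SD, n = 8). The strong windows at chr10:8050441-8050841 and chr10:8049516-8049916, intronic by GENCODE, stood at 3.95 ± 0.55 and 3.70 ± 0.66. Neither was within 500 bp of a GENCODE start of GATA3. A RefSeq start of GATA3, however, lay 138 bp from the centre of chr10:8049516-8049916, so that this window is at a promoter by RefSeq.

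SIX2, the factor that keeps nephron progenitors undifferentiated, had the most accessible window of the 86. It had 3 windows, all in the upstream flank. The promoter window chr2:45009382-45009782, 130 bp upstream of the only annotated start, ranged from 4.09 to 5.62 log2 CPM in the control libraries with a median of 5.46. The dTAGV-1 libraries ranged from 4.76 to 5.62 with a median of 5.40, again with the replicate 12 library lowest in each group. Its control mean of 5.26 ± 0.50 (SD, n = 8) was at the percentile 98.8 of tested windows. The other windows stood at 3.40 ± 0.21 at 604 bp and 2.43 ± 0.33 at 4808 bp upstream. The promoter window took 70.8% ± 5.0 (SD, n = 8) of the counts in tested SIX2 windows in control cells. The promoter windows of EYA1 took 25.2% ± 1.7 of theirs. The promoter windows were 1 of 3 tested windows in SIX2 and 6 of 35 in EYA1, so the shares are not like for like.

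EYA1, the coactivator of SIX2, had 39 windows, 35 of them tested, over a gene body of 394593 bp on chromosome 8. Its density of 9.64 windows per 100 kb was below the median of protein-coding genes. The promoter window chr8:71361623-71362023, 246 bp downstream of the canonical start, ranged from 3.52 to 4.30 log2 CPM in control cells with a median of 4.13. The dTAGV-1 libraries ranged from 3.49 to 4.64 with a median of 4.20. A strong intronic window at chr8:71355345-71355745, 6524 bp into the gene, stood at 3.79 ± 0.34 (SD, n = 8) with a GC content of 37.9% against 58.9% in the promoter window. A further intronic window, chr8:71301134-71301534, stood at 3.18 ± 0.23 with the lowest GC content of all members, 32.9%.

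An upstream alternative start of EYA1, 1 of its 24 annotated starts, was much less accessible than the canonical one. The window chr8:71547501-71547901, 44 bp from that start and 185632 bp upstream of the canonical one, stood at 1.13 ± 0.55 log2 CPM (SD, n = 8), although it had the highest GC content of the 98 windows, 75.8%, and 54 CG dinucleotides. A start 39455 bp downstream of the canonical one had a window at 0.70 ± 0.56, the lowest promoter value among the members. These 2 windows were singled out after their values were seen.

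The levels of the 6 accessible promoters were put in order over the 8 control libraries, pairing values within each library. The window of each gene and the order came from these same libraries, and the p-values do not allow for that choice. The window was the highest of 1 in SIX2 and of 6 in EYA1. SIX2 was 1.02 ± 0.14 log2 units (mean difference ± SD, n = 8) above GATA3, in 8 of 8 libraries (exact sign-flip permutation test, two-sided, adjusted p = 0.0195 over 5 neighbouring pairs). GATA3 and EMX2 differed by 0.0060 ± 0.35, with GATA3 higher in 5 of 8 libraries (exact adjusted p = 0.977). EMX2 was 0.18 ± 0.23 above EYA1 in 7 of 8 libraries (exact adjusted p = 0.0488), EYA1 0.70 ± 0.22 above PAX2 in 8 of 8 (exact adjusted p = 0.0195) and PAX2 0.37 ± 0.36 above WT1 in 7 of 8 (exact adjusted p = 0.0391). With each control library left out in turn, SIX2 above the next promoter and EYA1 above PAX2 passed in all 8 sets. PAX2 above WT1 passed only without control replicate 10 (exact adjusted p = 0.0260), and EMX2 above EYA1 gave exact adjusted p of 0.0781 without control replicate 12 and 0.0977 without replicate 9 or 11. In the other 5 sets GATA3 and EMX2 changed places. Levels of different genes also depend on gene copy number in this line, whose part was not tested.

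**Figure D3:**
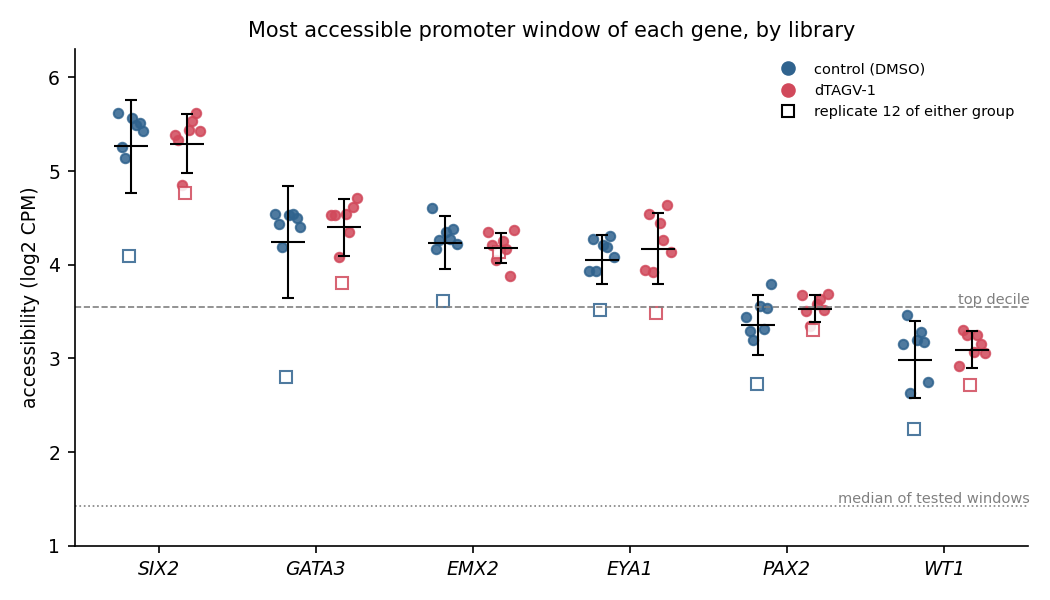
Accessibility (log2 CPM, vertical axis) of the most accessible promoter window of each gene in the 8 control (blue) and 8 dTAGV-1 (red) libraries, with the mean and SD in black. Open squares are the replicate 12 libraries, and the dashed and dotted lines are the top decile (3.55) and median (1.42) of tested windows. SIX2 lies highest, and the groups overlap in every gene.

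The comparison addressed accessibility 30 min after degradation of ZNF143 was induced. The amount of ZNF143 protein left was not measured in these files. None of the 86 member windows changed with dTAGV-1 at an adjusted p under 0.05 in edgeR's quasi-likelihood test, adjusted over all 185040 windows, of which 0.215% were called. Lower calls made up 0.213% and higher calls 0.00108% of all windows. At an unadjusted p under 0.05 there were 3 member windows in edgeR and 3 in DESeq2, against 2.85% of all windows in edgeR. With DESeq2, 0 passed the adjusted threshold too. Log2 fold changes ran from −0.77 to 0.46 with a median of 0.020, against a median of 0.0077 over all tested windows, and 40 were negative and 46 positive. In 0 of the 86 did the groups fail to overlap, against 0.0746% of all windows.

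The promoter estimates were close to 0 with intervals of limited width. The log2 fold change was −0.010 (95% interval −0.35 to 0.33) for SIX2, 0.082 (−0.25 to 0.42) for GATA3 and −0.094 (−0.38 to 0.19) for EMX2. For EYA1 it was 0.15 (−0.16 to 0.46), for PAX2 0.13 (−0.16 to 0.42) and for WT1 0.040 (−0.27 to 0.35). These intervals use the 14 residual degrees of freedom of the 16 libraries. Windows called elsewhere in the genome had changes of at least 0.56 in size, with a median of 0.95. Changes of 0.56 or more in either direction lie outside all 6 intervals.

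The 3 windows at an unadjusted p under 0.05 were all intronic in EYA1. The window chr8:71309807-71310207, 52062 bp into the gene, ranged from 0.36 to 2.80 log2 CPM in control cells with a median of 1.64, and from 0.09 to 1.56 in treated cells with a median of 0.94. All 8 treated libraries lay below the control median, yet the groups overlapped (log2 fold change −0.77, SE 0.26). Its highest control value was that of replicate 12, the flattest library. In the opposite direction, chr8:71427079-71427479 had medians of 2.09 and 2.46 (log2 fold change 0.41, SE 0.16), and chr8:71485897-71486297 medians of 1.16 and 1.63 (0.45, SE 0.21). The smallest adjusted p of any member window in edgeR's fit was 1.0. With the replicate number as a block in edgeR, it was 0.0952, and 6 member windows had an unadjusted p under 0.05. That fit called 0.407% of all windows, against 0.215% without the block. Its share of all windows at an unadjusted p under 0.05 is not given here, so the 6 cannot be read as an excess. In the fit without the block, only the window at 71309807 reached the size of 0.56 that called windows had.

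Windows of PAX2 and PAX8 were also among the 3 higher and 3 lower member windows with the smallest p, and did not pass either. The CG-free PAX2 window at chr10:100817485-100817885 had medians of 2.32 in control and 2.56 in treated cells (log2 fold change 0.31, SE 0.16). The PAX8 flank window chr2:113212248-113212648 had medians of 1.05 and 0.45 (−0.53, SE 0.30), and its nearest start was that of PAX8-AS1, at 926 bp.

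**Figure D4:**
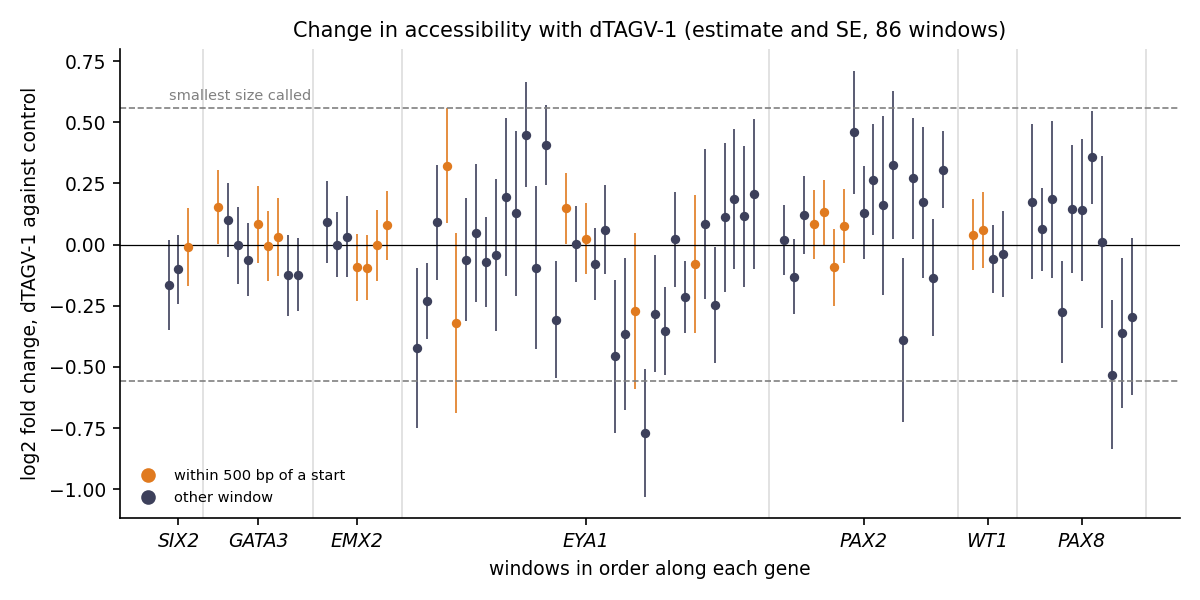
Log2 fold change with dTAGV-1 against control (vertical axis, points with SE bars) of the 86 tested windows, in order along each gene. Orange points lie within 500 bp of a start, and dashed lines mark 0.56 in either direction, the smallest change called in any window. Of the 86, only 1 point, in EYA1, lies beyond a dashed line.

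Summing the counts of all windows of a gene region gave no call either. Of the 7 genes with tested sums, 0 passed in edgeR and 0 in DESeq2, where 1.52% of 17568 protein-coding genes were called in edgeR. At an unadjusted p under 0.05 there were also 0, against 4.78% of all genes. The estimates ran from −0.061 for EYA1 (95% interval −0.22 to 0.10) to 0.079 for PAX2 (−0.064 to 0.22). The interval was −0.24 to 0.15 for SIX2, −0.16 to 0.18 for PAX8 and −0.15 to 0.21 for GATA3. For EMX2 it was −0.14 to 0.094 and for WT1 −0.16 to 0.17.

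The core motif of ZNF143, searched on both strands, was in 0 of the 86 tested windows, against 1.16% of all tested windows. In the 728.9 kb of the 8 regions it occurred 9 times, 6 in EYA1, 2 in PAX8 and 1 in WT1. Of these, 1 lay 32 bp from the centre of an EYA1 window with too few counts to test, and the nearest matches in PAX8 and WT1 lay 2438 bp and 6679 bp from a window. The nearest called window to any member was 83.4 kb from PAX2, nearest to the start of SLF2 (log2 fold change −0.70, edgeR adjusted p = 0.00296). For EYA1 the nearest was 0.725 Mb away and for the other genes between 2.06 Mb (SIX2) and 29.9 Mb (GATA3). The distance for LHX1, 3.43 Mb, does not show that nearby windows were unchanged. Only 1 of the 158 windows in the run around LHX1 was tested.

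Other motifs were found at shares like those of all windows of the same 401 bp. GATAAG, the GATA motif, was in 18.6% of the tested member windows against 14.3% of all, and CATTCC, the TEAD motif, in 19.8% against 21.0%. GTCACGC, part of the paired-domain motif, was in 1.16% against 1.58%, and GGGGCGGGG, the SP and KLF motif, in 8.14% against 5.76%. Both strands were searched, and a match is a description of the sequence only.

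The promoter window most alike to that of SIX2 across the 16 libraries was at SAP30, with Pearson's r = 0.985, then AZI2 with ZCWPW2 at 0.984 and SOD2 at 0.982. This is a description over 31681 other promoter windows, whose median r was 0.58 and of which 9.74% exceeded 0.9. All share the same libraries, whose flatness differs, and its part in r was not tested.

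Promoters of other kidney development genes were graded in the same way. Of 40, 17 were strong, 14 intermediate, 0 weak, 1 had only a window with too few counts and 8 had no promoter window. Strong ones included FOXD1 of the renal stroma (5.35 ± 0.40), SALL1 of the metanephric mesenchyme (4.53 ± 0.36) and DACH1, a partner of the EYA proteins (6.44 ± 0.40, all SD, n = 8). OSR1, a marker of the intermediate mesoderm (1.93 ± 0.24), and WNT4, which induces nephron formation (1.96 ± 0.63), were intermediate. No promoter window was listed for HNF4A, TCF21, GREM1 or IRX2, among others. None of the 96 tested promoter windows of this list passed in edgeR, where 0.634% of promoter windows of protein-coding genes were called. An unadjusted p under 0.05 was reached by 0, against 977 of the 31702 promoter windows of protein-coding genes.

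Among 28 paralogues of the members, 16 were strong, 4 intermediate, 4 weak and 4 without a promoter window. PAX6 (5.61 ± 0.41), GATA6 (5.38 ± 0.50) and SIX4 (5.43 ± 0.35) were strong, beside 3.36 for PAX2, 4.24 for GATA3 and 5.26 for SIX2, differences that were not tested. In contrast, PAX4 (0.77 ± 0.60), PAX7 (0.77 ± 0.48) and LHX3 (0.98 ± 0.49, all SD, n = 8) were weak. SIX3 and SIX6 had no promoter window. Of the 65 tested promoter windows, 0 passed in edgeR and 0 had an unadjusted p under 0.05. Among the 31702 promoter windows of protein-coding genes, 0.634% passed and 977 had an unadjusted p under 0.05.

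Genes of the mature nephron were graded likewise. Of 20, 3 were strong, 6 intermediate and 2 weak, and 9 had no promoter window, among them SLC34A1 of the proximal tubule, UMOD of the thick limb and AQP2 of the collecting duct. Of 30 marker genes of other lineages, 6 were strong, 4 intermediate and 2 weak, and 18 had no promoter window. Of 15 ubiquitous genes, 12 were strong, 2 had only windows with too few counts and 1 had none listed. Over all 20033 protein-coding genes the shares were 49.4% strong and 24.3% without a promoter window, and the shares of the lists were not tested against each other. In the nephron, other-lineage and ubiquitous lists edgeR called 0 promoter windows, where 0.634% of promoter windows of protein-coding genes were called. An unadjusted p under 0.05 was reached by 2 of the 21 tested nephron windows and by 0 in the other lists. Over all protein-coding genes it was reached by 977 of 31702 promoter windows.

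**Figure D5:**
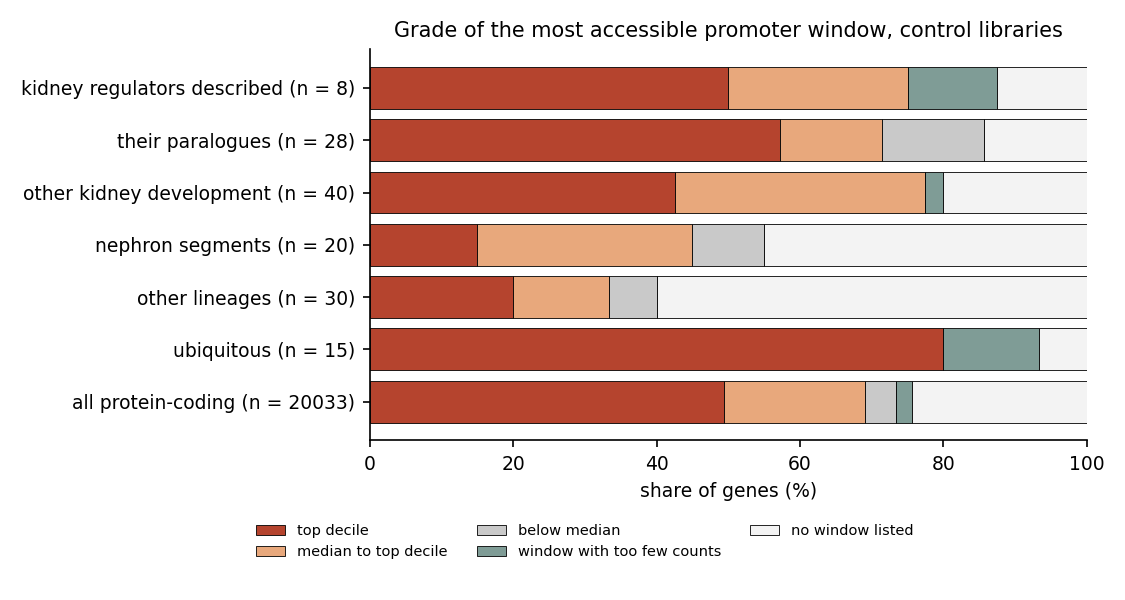
Share of genes (horizontal axis, %) by the grade of their most accessible promoter window in control libraries, for the 8 members, the 5 other lists and all 20033 protein-coding genes. Among the members 4 were strong and 2 intermediate, with 1 window too low to test and 1 gene without a window, and the nephron and other-lineage lists hold the largest shares of genes with no window listed.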

How the data were processed

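Per the labels' protocols, nuclei of 1 HEK293T clone were tagmented with Tn5 and amplified into ATAC-seq libraries. The submitters' processing notes name cutadapt 1.8.1, Bowtie2 2.4.4, SAMtools 1.9 and the build hg38. The peak caller, the counting tool and any shift of reads for Tn5 are not given in the sources used here. The deposited table holds whole-number counts per 401 bp window for 16 libraries, per the file headers, without normalization. It also gives the authors' −log10 q of each window, with a minimum of 2.0. The deposited summit list gives the authors' −log10 score and no value per library. These were used only to describe windows. Neighbouring windows can overlap and then share counts.

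Windows were filtered with filterByExpr and tested in edgeR 4.0.16 (R 4.3.3) by the quasi-likelihood test with TMM scaling, no covariate, and Benjamini-Hochberg adjustment at 0.05 over all windows. DESeq2 1.42.0 was an alternative. Gene sums were fitted over all protein-coding genes. Levels are log2 CPM with a prior count of 2. The fit was tested on simulated data. Over 56 same-group pairs of libraries, chi-square per degree of freedom was 1.65 to 4.89, so that all were counted separately.

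Windows were named by rule: for each gene the promoter window and the 2 other windows with the highest control mean, every called window, and the 3 lower and 3 higher windows with the smallest p. Lists covered the paralogues, other kidney development genes, nephron segments, other lineages and ubiquitous genes. The members and lists were chosen with earlier results of these data known. Sequences came from RefSeq (GRCh38.p14) and hg38, and annotation from GENCODE release 44. Alternatives covered scaling, tool, filter, covariate, flanks, promoter distance and libraries. Replicates 1 to 8 have no counts in the files used here and entered no test.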

Additional observations from a re-analysis of the deposited data

Results flagged for a closer look

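In 9 of the 52 groups of 8 libraries looked at, over the windows named in the text, a library lay farther from the others than Dixon's 95% criterion allows. Chance gives such a gap in about 1 of 20 groups. All 9 were control replicate 12, the library with the fewest counts and the flattest profile, and all 9 lay on the low side. In GATA3 its values were 2.12 log2 CPM at chr10:8049516-8049916, 2.64 at chr10:8050441-8050841 and 2.80 at chr10:8053315-8053715. In SIX2 they were 4.09 at chr2:45009382-45009782 and 2.95 at chr2:45009856-45010256. In EMX2 they were 3.14 at chr10:117541258-117541658 and 3.61 at chr10:117542403-117542803. The PAX2 window chr10:100743594-100743994 stood at 2.45 and the EYA1 promoter window chr8:71361623-71362023 at 3.52. The part of depth or library quality in these values was not tested.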

How the results depend on the processing

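No member window and no gene sum passed the adjusted threshold under the alternatives run for each. Those for windows were other scaling, DESeq2, no low-count filter, each library left out, replicates 11 and 12 left out of both groups, and narrower or wider flanks (0 or 20000 bp). Those for gene sums were the same without library totals, filter and flanks, with overlapping windows left out added. Unadjusted p under 0.05 were reached by 2 to 8 member windows, and the smallest adjusted p was 0.0952, in edgeR with the replicate block. The shares of all windows at that unadjusted level in the alternative fits are not given here, so these counts cannot be read as an excess. The replicate block gave 753 called windows in the whole table against 397 without it, and 0 member windows called. Same-numbered libraries correlated at 0.028 to 0.34, over 0.1 in 5 of 8, and 5 of 8 correlated best with their own number. The main fit left the numbers out, and these values do not settle whether they pair the libraries. Without replicates 11 and 12, 781 windows were called in the table, and without control replicate 12 alone 632. Leaving out replicates 11 and 12 of both groups with the replicate block, chosen after seeing the data, called 945.

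Of the 5 neighbouring pairs in the promoter order, 4 passed, and 4 under other promoter distances or library totals. Without control replicates 11 and 12 the number was 0. There 2 pairs reached an exact p of 0.0312, the smallest that 6 libraries allow, with an adjusted p of 0.0781. Leaving out each control library in turn, added after seeing the data, left 2 to 3 pairs, and GATA3 and EMX2 changed places without replicate 10, 13, 14, 15 or 16.

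Estimates near 0 changed sign in some settings, all without a call. The WT1 promoter window went to −0.054 without replicates 11 and 12 and to −0.060 with the replicate block added. The EMX2 window at 117541258 went to 0.00065 with RLE factors and 0.00071 without the filter. With each library left out, that window ranged from −0.064 to 0.032, EMX2 at 117541620 from −0.057 to 0.10, GATA3 at 8050441 from −0.15 to 0.0019, GATA3 at 8053315 from −0.014 to 0.14, PAX2 at 100743594 from −0.039 to 0.097, PAX8 at 113273031 from −0.051 to 0.13, SIX2 at 45009382 from −0.11 to 0.048, WT1 at 32385970 from −0.13 to 0.030 and WT1 at 32435395 from −0.013 to 0.12. The cause was not tested.

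The SE of member fold changes ran from 0.13 to 0.37.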

Other observations

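Empty windows with strong peak calls were not limited to the region of LHX1. In the whole table, 4434 windows had fewer than 20 counts over the 16 libraries and 2816 had 0. Of the 21236 windows with the highest −log10 q by the authors' call, from 302.0 upwards, 241 had fewer than 20 counts, and 9 of those lay in the run around LHX1. Both promoter windows of TUBB, a tubulin gene used in every cell, had 0 counts with a −log10 q of up to 193.2. The 2 promoter windows of B2M, the light chain of MHC class I, had 89 counts in all with a −log10 q of up to 380.7. The 3 promoter windows of WNT9B, the ureteric signal that induces nephrons, had 0 counts with a −log10 q of up to 95.1. Chromosome 17 held 326 of the windows under 20 counts. What emptied these windows was not tested.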
